A study of Drosophila melanogaster with 5 samples.

Results

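The ovary of the Drosophila melanogaster line iso1a was compared with the whole body of the same line, using 3 of the 5 libraries of a series on transcription from transposable elements (TEs). Capped 5′ ends (CAGE) of ovary transcripts were read with strand in 2 libraries, each made from 5 µg of RNA of 20 ovaries per the labels. One, Iso1a-454, came from a pyrosequencing platform and is marked normalization yes; the second, called Solexa here after its platform, is marked normalization no. The iso1a whole body was a pool of 10 males under 24 h old and 10 females of 0 to 3 days, read by random priming on Illumina without strand, with normalization yes. Whole bodies of the lines Rev and IR6, prepared in the same way but with normalization no, served only to show how far a result hung on the iso1a body library. All libraries held polyadenylated RNA. The labels gave no age for the females whose ovaries were taken, no treatment and no genotype beyond the names of the lines.

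The fly ovary is a set of egg tubes in which each egg chamber holds germline cells, the oocyte and its nurse cells, inside a layer of somatic follicle cells. Nurse cells fill the oocyte with maternal mRNA and ribosomes. Follicle cells pass some yolk protein to the oocyte and then secrete the eggshell, an inner vitelline membrane and an outer chorion. The Piwi-interacting RNA (piRNA) pathway of the germline and of follicle cells silences TEs there.

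With 1 library per group, differences had no replicate check and no p-value was computed. Tissue, sex, assay and platform changed together between ovary and body, and for the Solexa library the normalization label did as well, so these cannot be told apart. In bulk RNA, fewer cells of a type and less RNA per cell cannot be told apart either. Gene counts summed to 109980 in the Iso1a-454 ovary library, 2813522 in the Solexa ovary library and 4379746 in the iso1a body. Levels are given in CPM, counts per 1000000 gene counts, in which 3 counts, the limit that a count of 0 allows, came to 27.3, 1.07 and 0.685 CPM in the same order. Counting intervals cover counting error only. The 100 genes with the most counts took 65.3% and 56.4% of gene counts in the Iso1a-454 and Solexa libraries, against 13.1% in the iso1a body, 29.1% in Rev and 32.3% in IR6.

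The tissue labels were set against cell markers. Of 6 germline markers (vas, nanos, osk, aub, otu and bam), 5 had counts in the Iso1a-454 ovary library and 6 in the Solexa ovary library, against 6 in the body. Their summed level was 709 CPM in Iso1a-454 and 467 CPM in Solexa, lower than the 1729 CPM in the body. Of 7 follicle cell markers (Cp15, Cp18, Cp36, Vm26Aa, Vml, Yp1 and tj), 6 had counts in each of the 3 libraries. The other, tj, a transcription factor of early follicle cells, was at 0 in all of them. The follicle markers summed to 78969 and 77177 CPM in the ovary libraries, against 429.7 CPM in the body. Most of the ovary sums came from the eggshell genes Cp15, Cp18 and Vm26Aa, which also belong to the eggshell lists below. Yp1 was below the body in Iso1a-454 (81.8 against 225 CPM). Regulators of follicle cells, listed below, summed lower in ovary than in the body. The neuron markers elav, Syt1 and nSyb, the gut proteases Jon65Aiv and betaTry and the rhodopsin gene ninaE were at 0 in both ovary libraries. The muscle myosin gene Mhc had 1 count in the Iso1a-454 and 0 in the Solexa ovary library, against 7905 in the body. The testis markers betaTub85D and dj were at 0 in both ovary libraries, and Mst87F had 1 count in Iso1a-454.

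A gene was taken as higher or lower in ovary where both ovary libraries differed from the iso1a body at least 4-fold in the same direction, among genes with at least 50 counts in each pair of libraries. Of 8582 such genes, 163 were higher in ovary, which is 1.90%, and 3772 were lower, which is 44.0%. The median log2 ratio of ovary over body was −2.12 with the Iso1a-454 library and −3.66 with the Solexa library. With TMM scaling from edgeR, which centres on the bulk of genes, 367 genes were higher and 2080 lower, and the median of the smaller of the 2 ratios, taken as 0 where they differ in sign, moved by 1.07 from −1.73. Under that scaling 10 chorion genes were higher and 0 lower, and 45 ribosomal protein genes were higher and 1 lower. The filter on counts was set almost wholly by the body: 8560 of the 8582 genes held at least 50 body counts. Of the 3772 lower genes, 2784 were at 0 in the Iso1a-454 library, 2318 at 0 in the Solexa library and 2114 at 0 in both. A gene at 0 in the shallow Iso1a-454 library passed 4-fold there once it had 80 body counts, and was called lower if Solexa passed too. The number of lower genes thus rests on depth. For 120 of the higher genes and 825 of the lower genes, the near bound of both counting intervals also passed 4-fold. The calls hung on the body library. With the Rev body, 215 of 9466 genes were higher and 2659 lower. Only 69 and 1775 of these were also called with the iso1a body. With IR6, 194 of 9148 genes were higher and 2542 lower, and 67 and 1700 of these were also called with the iso1a body.

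Calls near the threshold are not sharp. Among higher genes, Dcps lay just inside it and MAN1 just outside, both with a smaller ratio that rounds to 4-fold. Among lower genes, dmt lay just inside and shep just outside, again both at 4-fold after rounding.

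Body reads carry no strand, so they cannot be divided between genes that share exon positions, and this touched 38.4% of tested genes, 39.9% of the higher and 35.2% of the lower ones. Values of the named genes BicC, nanos, osk, grk, pgc, aub, armi, piwi, squ, zuc, mino, Nlp, His3.3A, CycE, tsr, ndl, pip, Pxn, fs(1)M3, RpS20, RpS29, RpL37A, RpL22, awd, unc-13, apolpp, fln, dec, yellow-g, Yp1, yl, spo, Tm1, EMC6, bam, otu, Act57B and Act87E are uncertain for that reason.

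**Figure D1:**
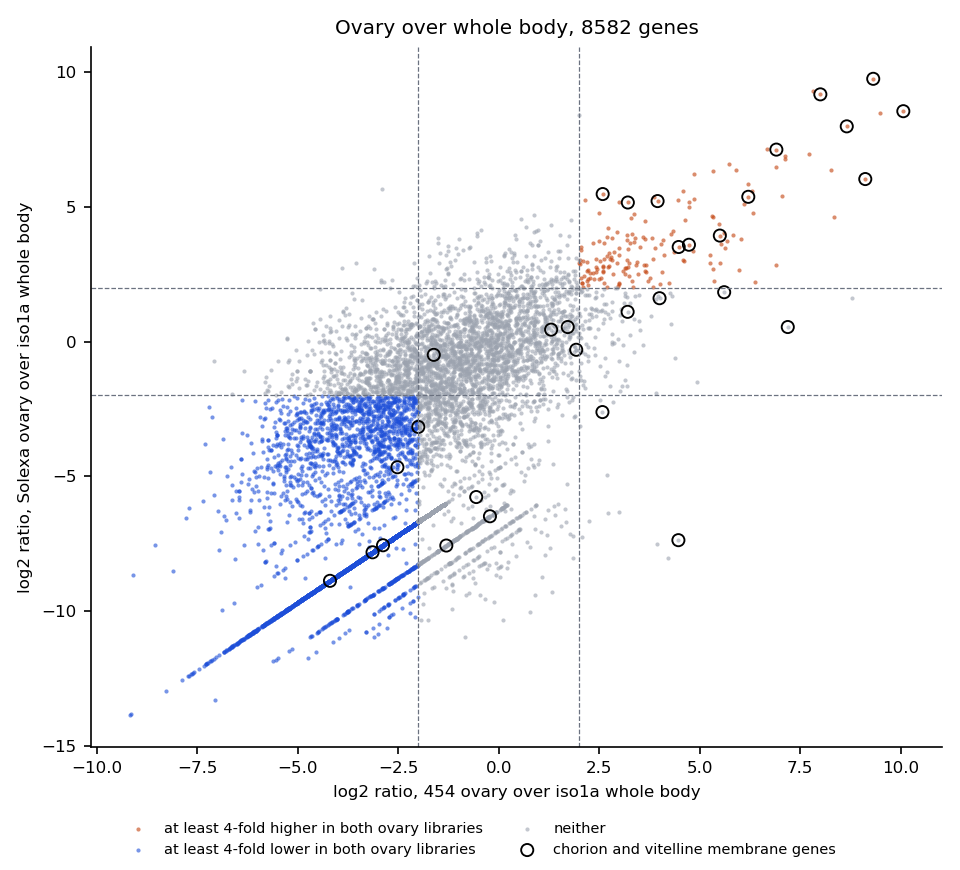
Each point is 1 of 8582 genes, with the log2 ratio of the Iso1a-454 ovary library over the iso1a whole body on the x axis and that of the Solexa ovary library on the y axis; dashed lines mark 4-fold, colours the calls and rings the chorion and vitelline membrane genes. The straight diagonal rows at the lower left are genes with 0 or a few counts in an ovary library, and the chorion and vitelline membrane genes called higher lie at the upper right.

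Chorion genes were high in ovary. Summed over 20 genes, they held 88962 CPM in the Iso1a-454 and 52665 CPM in the Solexa ovary library, against 1593 CPM in the iso1a body. Of 18 genes that passed the filter, 7 were higher and 0 lower, beside 1.90% higher and 44.0% lower among all genes tested. Their median smaller log2 ratio was 1.35, against −1.73 over all genes tested; with genes at 0 set to 3 counts the medians were 1.36 and −0.58.

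The autosomal chorion cluster on chromosome arm 3L and the X-linked cluster are amplified in follicle cells before the shell is laid down. Cp18, of the autosomal cluster, had 15212 CPM in the Iso1a-454 and 20485 CPM in the Solexa ovary library, against 23.7 CPM in the body, and its log2 ratios were 9.32 (9.04 to 9.62) and 9.75 (9.48 to 10.04). Its neighbour Cp15 had 41471 and 14449.5 CPM in the ovary libraries, against 38.6 CPM in the body, with log2 ratios of 10.07 and 8.54. Cp19 had 8529 and 5341 CPM in ovary, against 21.0 CPM in the body (8.66 and 7.98). In these 3 genes both ovary libraries stood far above the body.

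The fourth gene of the autosomal cluster, Cp16, was further apart between the ovary libraries, with 391 and 2923 CPM in the Iso1a-454 and Solexa libraries, against 65.8 CPM in the body (2.59 and 5.47). On the X chromosome, Cp36 had 4037 and 4684 CPM in the ovary libraries, against 33.6 CPM in the body (6.91 and 7.12). Cp38, the other major X-linked chorion gene, had 9519.9 CPM in the Iso1a-454 library and 94.5 CPM in the Solexa library, against 65.1 CPM in the body. The Solexa library thus put Cp38 close to the body (log2 ratio 0.54, 0.29 to 0.79) where the Iso1a-454 library put it far above (7.19), and it was not called. The remaining higher members were Femcoat, with 591 and 2295 CPM in ovary against 64.2 CPM in the body, and Cp7Fa, with 1473 and 669.6 CPM against 55.5 CPM. The eggshell gene dec had 1518 and 354 CPM in ovary, against 165 CPM in the body, and did not reach 4-fold with Solexa. The eggshell gene yellow-g had 646 CPM in the Iso1a-454 library and 0 counts in the Solexa library, against 29.2 CPM in the body.

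Vitelline membrane genes lay on both sides of the body. Of 13 genes tested, 6 were higher and 5 lower, beside 1.90% and 44.0% of all genes tested. The list summed to 44435 CPM in the Iso1a-454 and 47882 CPM in the Solexa ovary library, against 887 CPM in the body. Vm26Aa had 16058 and 36084 CPM in the ovary libraries, against 62.6 CPM in the body; its counting intervals of the log2 ratio ran up to 8.19 and 9.35. Vm26Ab had 18722 and 2197 CPM in ovary, against 33.6 CPM in the body (9.12 and 6.03). Vm32E, with 2573 and 6167 CPM in ovary against 166 CPM in the body, and Vm34Ca, with 4428 and 2477 CPM against 59.8 CPM, were higher too. Vml had 2109 and 712 CPM in ovary against 46.6 CPM in the body, and psd had 446 and 230 CPM against 20.1 CPM.

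Of the lower members, ndl, tsl and pip act in patterning the embryo, fs(1)M3 is a component of the eggshell and Pxn is a peroxidase of basement membranes. The protease gene ndl and the terminal patterning gene tsl were at 0 in both ovary libraries, against 146 and 175 body counts. The sulfotransferase gene pip had 2 and 14 counts in the ovary libraries, against 571 in the body. For fs(1)M3 there were 2 and 28 counts in ovary against 398 in the body, and for Pxn 0 and 0 against 365. Vm26Ac, a structural member that was not called, had 6 and 4 counts in ovary, against 381 in the body. The median smaller log2 ratio of the list was −0.56, or −0.29 with 3 counts in place of 0.

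Yolk protein genes, active in fat body and follicle cells, gave a mixed picture. Yp2 was the 1 of 4 yolk genes that was higher, with 10129 CPM in the Iso1a-454 and 4984 CPM in the Solexa ovary library, against 147 CPM in the body (6.11 and 5.09). Yp3 had 927 and 1567 CPM in ovary, against 283 CPM in the body (1.72 and 2.47), short of the threshold in the Iso1a-454 library. Yp1 had 81.8 and 762 CPM in ovary, against 225 CPM in the body, and its 2 ratios had opposite signs (−1.38 and 1.76). The yolk receptor gene yl, which takes yolk into the oocyte, had 255 and 83.9 CPM in ovary, against 102 CPM in the body (1.35 and −0.28).

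**Figure D2:**
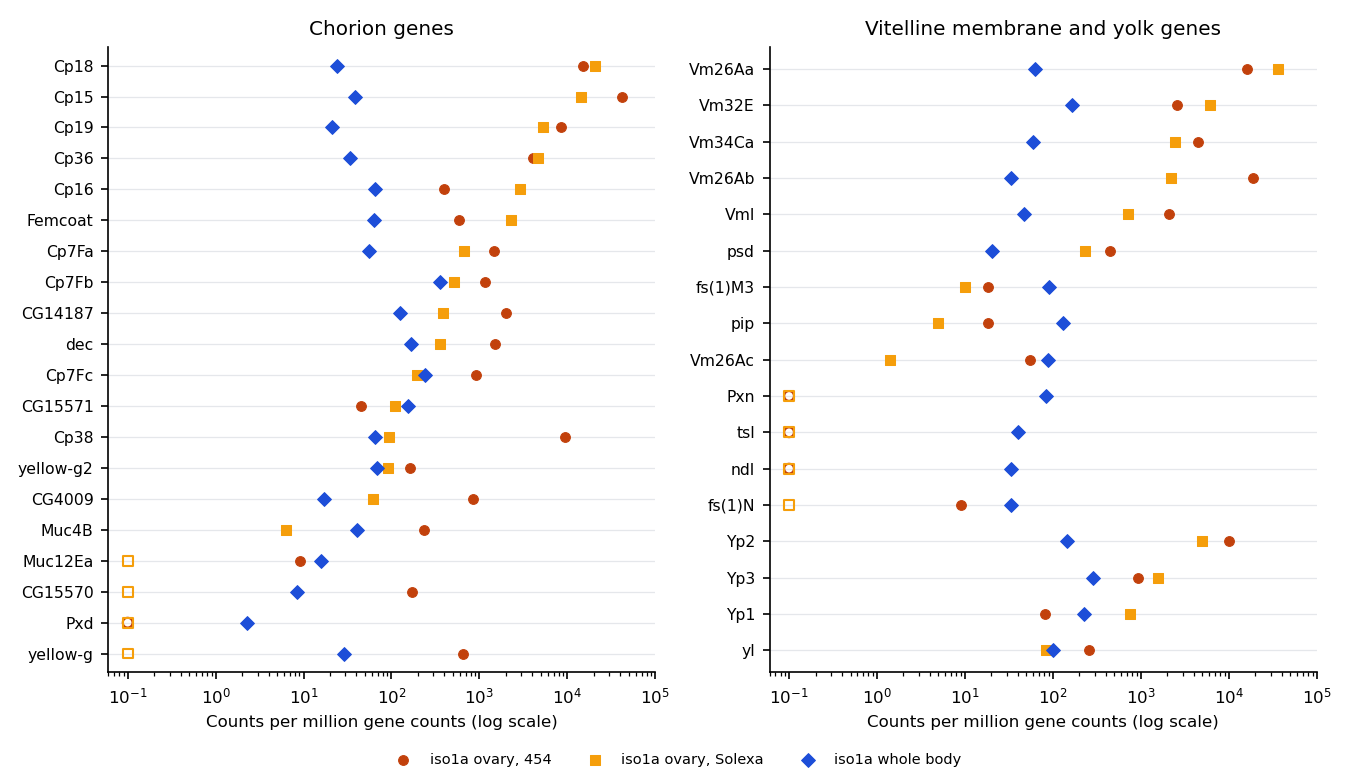
CPM on a log axis for the chorion genes (left) and the vitelline membrane and yolk genes (right), with circles for the Iso1a-454 ovary library, squares for the Solexa ovary library and diamonds for the iso1a whole body; open symbols at the left edge are counts of 0. Cp18, Cp15, Cp19, Cp36 and Vm26Aa show both ovary symbols far to the right of the body, while ndl, tsl and Pxn show counts in the body alone.

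The size of the eggshell and yolk excess depended on the body library. Chorion genes summed to 20126 CPM in the Rev body and 22232 CPM in the IR6 body, against 1593 CPM in the iso1a body, and yolk genes to 62390 and 62178 CPM, against 756 CPM. With Rev in place of the iso1a body, 6 chorion genes were higher and 2 lower than in the body (5 and 1 with IR6), and 2 of the 13 vitelline membrane genes were higher (3 with IR6). No yolk gene was higher with either. The log2 ratio of Yp2 became −0.44 with Rev and −0.39 with IR6, and that of Vml −0.05 with Rev. Line and normalization label differ together between these bodies and cannot be told apart.

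Genes of oocyte patterning and maternal RNA were mostly not called. Of 38 tested, 1 was higher and 14 lower, beside 1.90% and 44.0% of all genes tested, and the list summed to 10002 CPM in the Iso1a-454 and 10472 CPM in the Solexa ovary library, against 13155 CPM in the body. The median smaller log2 ratio was −1.38, against −1.73 over all genes tested. With 3 counts in place of 0 these were −1.32 and −0.58, so the list lay on the other side of the median of all genes. With TMM scaling 2 were higher and 7 lower, and with body counts per transcript length 0 and 4.

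The member that was higher was dhd, a thioredoxin of the egg that acts on sperm chromatin after fertilisation. It had 3783 CPM in the Iso1a-454 and 4421 CPM in the Solexa ovary library, against 630.4 CPM in the body, with log2 ratios of 2.59 (2.43 to 2.73) and 2.81 (2.75 to 2.87). Its testis paralog TrxT was at 0 in both ovary libraries, against 424 counts in the body. The translational repressor me31B had 800.1 and 1568 CPM in ovary, against 261 CPM in the body, and missed the threshold with Iso1a-454 (1.62 and 2.58).

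The other members with the most counts were close to the body or split between the ovary libraries. For pgc, which silences transcription in germ cell precursors, the ovary libraries held 491 and 651 CPM, against 941 CPM in the body (−0.93 and −0.53). The me31B partner tral had 1046 and 504 CPM in ovary, against 553 CPM in the body (0.92 and −0.13). The translational repressor bru1 had 1273 and 220.4 CPM in ovary, against 604 CPM in the body (1.08 and −1.45). BicC, an RNA-binding repressor, had 773 and 98.8 CPM in ovary, against 679.7 CPM in the body (0.19 and −2.78).

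Well known localised mRNAs of the oocyte were below the body in both ovary libraries, as was the median over all genes tested. The posterior determinant osk had 28 and 287 counts in the Iso1a-454 and Solexa libraries, against 3934 in the body (−1.79 and −3.14). The anterior determinant bcd had 5 and 26 counts, against 623 (−1.51 and −3.92), and grk, the dorsal signal of the oocyte, had 2 and 105, against 378 (−1.93 and −1.20). The other posterior determinant, nanos, had 18 and 174 counts in ovary, against 889 in the body (−0.27 and −1.71). None of these 4 was called. The median log2 ratio over all genes tested was −2.12 with Iso1a-454 and −3.66 with Solexa. Of the 4, only bcd lay below such a median, and with Solexa alone. Among the 14 lower genes were orb, a translational activator, with 0 and 11 counts against 2408, smg, a repressor of maternal mRNA, with 17 and 159 against 5332, and enc with 0 and 13 against 1247.

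**Figure D3:**
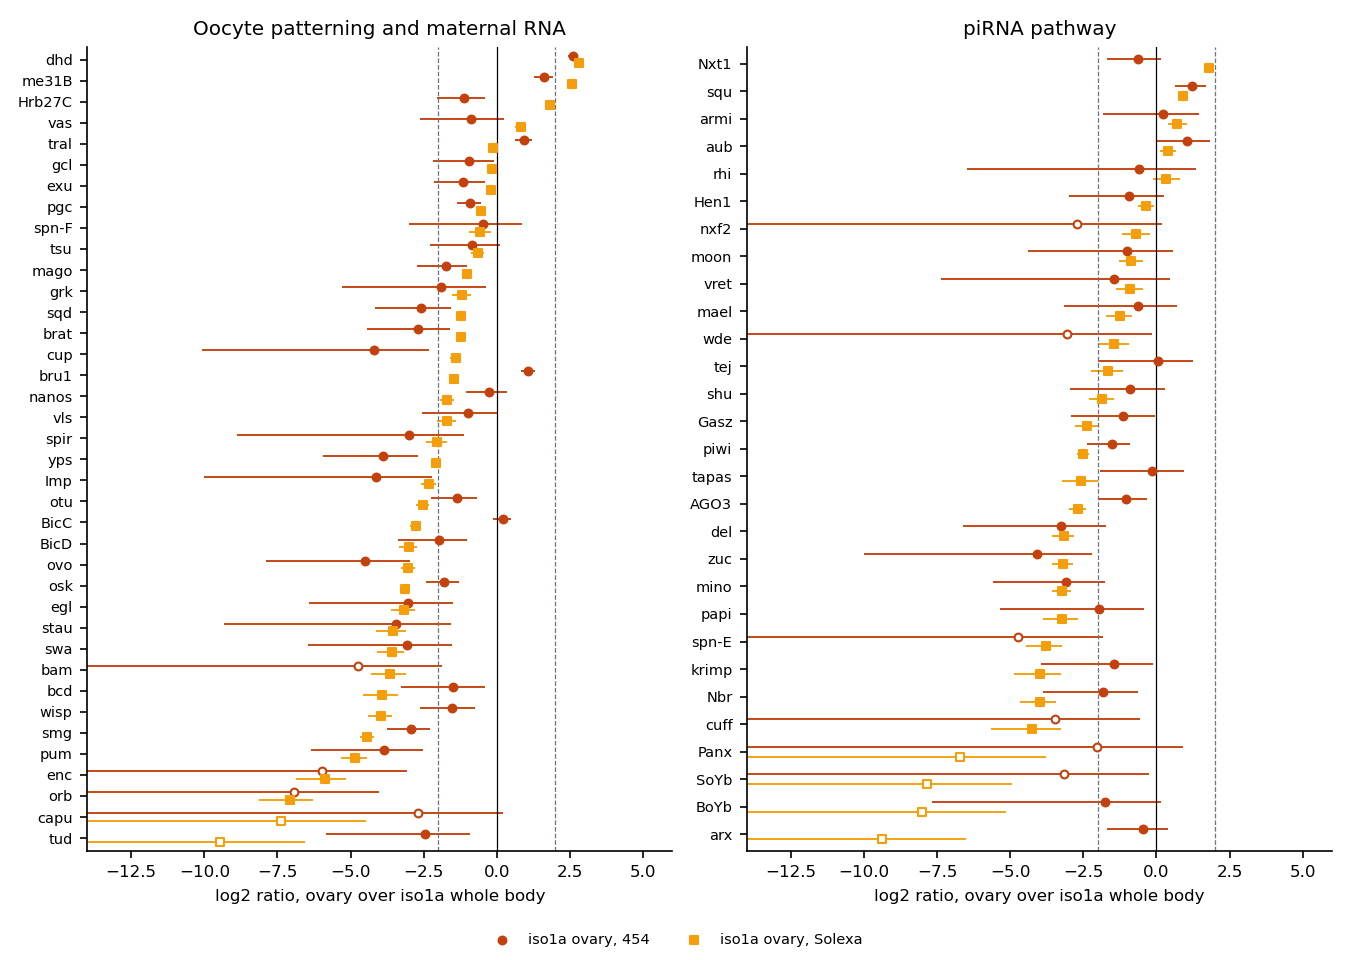
Log2 ratio of each ovary library over the iso1a whole body for the tested genes of oocyte patterning (left) and the piRNA pathway (right); circles are Iso1a-454, squares Solexa, bars exact 95% counting intervals, open symbols counts of 0, and dashed lines 4-fold. The Iso1a-454 intervals are wide, dhd alone lies past 4-fold on the right in both libraries, and orb and enc lie far to the left.

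Genes of the piRNA pathway were mostly not called. Of 29 tested, 0 were higher and 7 lower, beside 1.90% and 44.0% of all genes tested. The median smaller log2 ratio was −1.05, against −1.73 over all genes, or −0.87 against −0.58 with 3 counts in place of 0. The list summed to 1328 CPM in the Iso1a-454 and 1418 CPM in the Solexa ovary library, against 3123 CPM in the body. The squ gene, which acts in piRNA production, was above the body in both libraries, with 34 and 714 counts in ovary against 595 in the body (1.21 and 0.90). The Argonaute gene aub had 12 and 202 counts in ovary, against 240 in the body (1.05 and 0.39), and the helicase gene armi 4 and 161, against 153 (0.22 and 0.71). The founding Argonaute piwi had 155 and 81.0 CPM in ovary, against 461 CPM in the body (−1.54 and −2.51). The third Argonaute gene, AGO3, had 118 and 39.5 CPM in ovary, against 254 CPM in the body (−1.05 and −2.68). The lower members included mino, a mitochondrial acyltransferase, with 3 and 80 counts in ovary against 1179 in the body, and the nuclease gene zuc with 1 and 71 counts against 1023. Against the IR6 body the smaller log2 ratio of zuc was 0.02, and with Rev and IR6 as body 6 and 4 members were lower.

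Of 17 maternal chromatin genes, 3 were higher and 2 lower, beside 1.90% and 44.0% of all genes tested. They summed to 8320 CPM in the Iso1a-454 and 12832 CPM in the Solexa ovary library, against 3181 CPM in the body. Besides dhd, the called genes were Nlp, a nucleoplasmin of the egg, and His3.3A, a replication-independent histone. Nlp had 1819 and 2632 CPM in ovary, against 272 CPM in the body (2.74 and 3.27), and His3.3A had 46 and 694 counts, against 129 (3.84 and 3.06). The second H3.3 gene, His3.3B, had 24 and 6519 counts in ovary, against 718 in the body (0.44 and 3.82). Of 24 genes of meiosis and egg activation, 0 were higher and 12 lower, beside 44.0% lower among all genes tested, and 9 were lower with 3 counts in place of 0. The S-M cycle regulator gnu had 34 counts in the Iso1a-454 and 10370 in the Solexa ovary library, against 1032 in the body (0.41 and 3.97), and its partner plu had 427 and 311 CPM, against 176 CPM (1.30 and 0.82). The Polo inhibitor mtrm had 509 and 514 CPM in ovary, against 978 CPM in the body (−0.93 with each library).

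Of 32 genes of DNA replication and the cell cycle, 0 were higher and 7 lower, beside 1.90% and 44.0% of all genes tested. Their median smaller log2 ratio was −0.83, against −1.73 over all genes, or −0.53 against −0.58 with 3 counts in place of 0. With TMM scaling 3 were higher and 2 lower. The cyclin gene CycB had 255 and 458 CPM in ovary, against 1081 CPM in the body (−2.06 and −1.24). CycA had 22 and 2216 counts in ovary, against 2389 in the body (−1.42 and 0.53), and the phosphatase gene stg 27.3 and 405 CPM, against 539 CPM (−4.08 and −0.41). CycE, the driver of endocycles in nurse and follicle cells, was lower, with 6 and 110 counts in ovary against 3349 in the body.

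Of 15 regulators of follicle cells tested, 0 were higher and 11 lower, beside 44.0% lower among all genes tested. With 3 counts in place of 0, 7 of the 15 were lower, and with body counts per transcript length 5 of 12, against 3017 of 7803 over all genes. All 23 listed genes summed to 173 CPM in the Iso1a-454 and 124 CPM in the Solexa ovary library, against 2263 CPM in the body. The ecdysone receptor gene EcR had 1 and 0 counts in ovary, against 1383 in the body, the receptor gene N 0 and 0 against 1321, and the transcription factor gene ttk 0 and 14 against 1074. Above the body in both ovary libraries was eya, which represses polar cell fate, with 6 and 86 counts in ovary against 112 in the body (1.20 and 0.26). Of 17 genes of ring canals and actin, 1 was higher and 8 lower, beside 1.90% and 44.0% of all genes tested. The higher gene was tsr, cofilin, with 3155 and 7750.1 CPM in ovary, against 323 CPM in the body (3.29 and 4.58). The profilin gene chic had 300.1 and 228 CPM in ovary, against 697 CPM in the body (−1.20 and −1.61), and kel, the ring canal gene, 0 and 0 counts against 917. Of 6 genes of steroid synthesis, 0 were higher and 3 lower, among them spo with 0 and 0 counts in ovary against 414 in the body.

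Ribosomal protein genes took more ovary counts than any other of the 23 lists. The 86 genes summed to 296136 CPM in the Iso1a-454 and 251063 CPM in the Solexa ovary library, against 13941 CPM in the iso1a body. Of 85 tested, 35 were higher and 2 lower, beside 1.90% and 44.0% of all genes tested, and the median smaller log2 ratio was 0.96. The most even was RpL38, with 15639 and 15528 CPM in ovary, against 1371 CPM in the body (3.51 and 3.50). The gene RpS29 had 17203 and 31182 CPM in ovary, against 324 CPM in the body (5.73 and 6.59), and RpS20 14475 and 11214 CPM, against 103 CPM (7.13 and 6.77). The 2 lower genes were RpL37A and RpL10Aa, the second of them at 0 in both ovary libraries against 352 body counts.

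The ribosomal values also hung on the body library. These genes summed to 90800 CPM in Rev and 113153 CPM in IR6, against 13941 CPM in the iso1a body. With Rev as the body, 15 were higher and 15 lower in ovary, and with IR6 15 and 16. The ovary libraries differed for single genes. RpL41 had 764 CPM in the Iso1a-454 and 64744 CPM in the Solexa ovary library, against 193 CPM in the body, and the smaller ratio fell just short of the threshold (1.99). RpL22 had 661 counts in Iso1a-454 and 3 in Solexa, against 1414 in the body. Near-identical paralogs and pseudogenes of ribosomal protein genes may share reads, so these single values are uncertain.

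Of the 15 genes with the largest smaller ratio in favour of the ovary, 6 were eggshell genes and 6 ribosomal protein genes. The remaining 3 were CG32642, CG18809 and awd. CG32642 had 2209 CPM in the Iso1a-454 and 1106 CPM in the Solexa ovary library, against 2.97 CPM in the body (9.49 and 8.49). CG18809 had 846 and 2387 CPM in ovary, against 3.65 CPM in the body (7.82 and 9.31), but its exons overlap those of COX6B. The nucleoside diphosphate kinase gene awd had 18522 and 4924 CPM in ovary, against 59.6 CPM in the body (8.28 and 6.37). All 3 were higher in the Rev and IR6 bodies than in the iso1a body. CG32642 had 168 and 153 CPM there, CG18809 26.7 and 22.8 CPM, and awd 142 and 135 CPM. The size of these ratios thus depended on the body library. Of 13265 genes, 2 had counts in both ovary libraries and 0 in the body: CG33681 with 5 and 163 counts and Cpr65Ay with 1 and 31.

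Gene families with tissue-specific copies, chosen after their values were seen, gave a mixed picture. The cytoplasmic actin gene Act5C had 769 and 2689 counts in ovary, against 3943 in the body (2.96 and 0.09), and Act42A had 42 and 899, against 919 (0.88 and 0.61). The muscle actins Act57B, Act79B, Act87E and Act88F had at most 12 counts in the Iso1a-454 and 67 in the Solexa ovary library, against 1180 to 2096 in the body. Among tubulins, alphaTub84D had 39 and 1727 counts in ovary, against 71 in the body, and the maternal copy alphaTub67C had 1 and 810, against 168, with ratios of opposite sign (−1.50 and 2.90). The gut copy betaTub97EF had 0 and 157 counts in ovary, against 71 in the body (−1.84 and 1.78). The testis copy betaTub85D was at 0 in both ovary libraries, against 310 in the body. Ant2, a carrier of adenine nucleotides, had 140 and 2165 counts in ovary, against 70 in the body, while its tandem neighbour sesB had 143 and 2213, against 3312. Ant2 and sesB share exons, and their ovary counts were nearly equal, so the ovary reads cannot be assigned to one of them here. Among ribosomal copies known from the gonads, RpS5b was higher, with 391 and 1682 counts in ovary against 344 in the body (5.50 and 2.93), and so was the ubiquitous RpS5a, with 200 and 1465 against 554. The gonad copies RpS19b, with 1 and 2 counts in ovary against 159 in the body, and RpS10a, with 5 and 0 against 267, were below the iso1a body without being called. RpS19b had 9.09 and 0.711 CPM in ovary, against 36.3 CPM in the iso1a body, 0.685 CPM in Rev and 1.66 CPM in IR6. RpS10a had 45.5 and 0 CPM in ovary, against 61.0, 5.39 and 7.89 CPM in the same bodies.

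Lists of tissues outside the ovary had lower summed levels in both ovary libraries than in the iso1a body, while their counts of lower genes rested in part on genes at 0. Genes of the male accessory gland, which makes seminal fluid, summed to 18.2 CPM in the Iso1a-454 and 9.24 CPM in the Solexa ovary library, against 10068 CPM in the body, and 44 of 47 tested were lower. Testis genes summed to 36.4 and 18.1 CPM in ovary, against 2729 CPM in the body, with 21 of 25 lower. Cuticle genes summed to 36.4 and 41.6 CPM in ovary, against 3227 CPM in the body. Of 91 listed, 19 passed the filter, which was set almost wholly by body counts, and 15 of these were lower. None of the tested members of these 3 lists was higher, beside 1.90% of all genes tested. The share that was lower can be set against 44.0%. With no minimum beyond 1 count in each pair, 2 of 69 cuticle genes were higher and 15 lower. For the testis 1 of 41 was higher and 21 lower, and for the gland 0 of 48 and 44. Over all genes 224 of 12453 were higher and 3772 lower by that rule. With 3 counts in place of 0, the lower genes were 27 of 47 for the gland, 8 of 25 for the testis and 6 of 19 for the cuticle, against 1856 of all 8582. The cuticle median was then −0.49, above the −0.58 of all genes. The body sums hung on the body library here as well. Gland genes summed to 1579 CPM in Rev and 2653 CPM in IR6, testis genes to 1789 and 2082 CPM. Cuticle genes summed to 1412 and 1120 CPM in Rev and IR6. These sums were below or near those of the iso1a body and above those of both ovary libraries.

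Muscle genes were lower by the same measure but were not absent, summing to 1691 CPM in the Iso1a-454 and 1140 CPM in the Solexa ovary library, against 23391 CPM in the body. Of 26 tested, 24 were lower, beside 44.0% of all genes tested, or 23 with 3 counts in place of 0. The ovary carries a muscle sheath, whose markers Mhc, Act57B and Act87E summed to 145 and 23.8 CPM in ovary, against 2595 CPM in the body; their part in the list's values was not tested. The arginine kinase gene Argk1 had 41 and 1335 counts in ovary, against 2380 in the body (−0.53 and −0.20), and the tropomyosin gene Tm1 had 93 and 883, against 3344 (0.15 and −1.28). The myosin light chain gene Mlc2 had 63.6 and 45.9 CPM in ovary, against 2619.6 CPM in the body (−5.26 and −5.83). The flight muscle gene fln had 0 counts in both ovary libraries and 11530 in the body, and was at least 96.5-fold lower by Iso1a-454 and 2469-fold lower by Solexa, with 3 counts taken per ovary library.

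In the nervous system list 15 of 18 genes were lower, in phototransduction 14 of 16 and among odorant binding genes 23 of 28, beside 44.0% of all genes tested. With 3 counts in place of 0 these were 5, 3 and 12, and with TMM scaling 10, 9 and 17. In the same order these lists summed to 4366, 1559 and 4355 CPM in the iso1a body. They summed to 1085, 2543 and 1610 CPM in Rev and to 842, 4127 and 2307 CPM in IR6. The tyrosine hydroxylase gene ple was at 0 in both ovary libraries, against 6229 counts in the body, and complexin, cpx, at 0 against 2839. The synaptic vesicle gene unc-13 was a partial exception, with 12 and 1721 counts in ovary, against 4854 in the body (−3.29 and −0.86). Among odorant binding genes Obp19c was above the body, with 718 and 377 CPM in ovary, against 162 CPM in the body (2.15 and 1.22). The rhodopsin gene ninaE had 0 counts in ovary, against 1768 in the body, and the arrestin gene Arr2 0 against 850.

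Counts for metabolic and defence genes depended on the treatment of genes at 0. Digestive enzyme genes had 21 of 29 lower, detoxification genes 40 of 63, genes of the fat body and hemolymph 13 of 16 and immune peptide genes 17 of 28, beside 44.0% of all genes tested. With 3 counts in place of 0 these were 4, 14, 5 and 10, and with TMM scaling 13, 20, 9 and 14. The digestive median with 3 counts in place of 0 was −0.28, above the −0.58 of all genes. The oenocyte gene Cyp4g1, which makes hydrocarbons, had 0 and 9 counts in ovary, against 5435 in the body. GstD1, a glutathione transferase, was above the body, with 582 and 310.3 CPM in ovary, against 172 CPM in the body (1.77 and 0.85). The lipophorin gene apolpp, the main lipid carrier of the hemolymph, was at 0 in ovary, against 3485 body counts. The Bomanin gene BomS1, a target of the Toll pathway, had 1 and 0 counts in ovary, against 2904 in the body; its level was 663 CPM in the iso1a body but 1.71 CPM in Rev and 5.71 CPM in IR6. For BomS2 the smaller log2 ratio was −4.69 with the iso1a body, 0.76 with Rev and 1.54 with IR6.

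**Figure D4:**
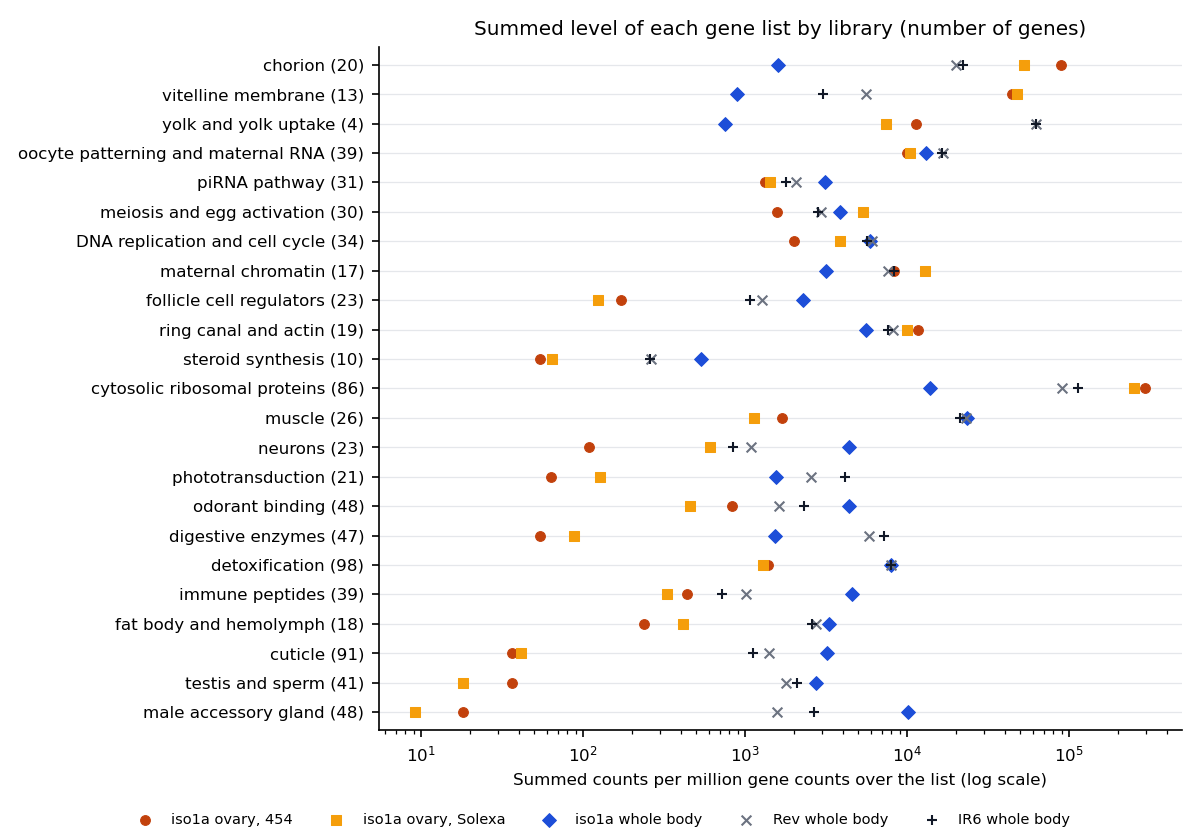
Summed CPM of each of the 23 gene lists on a log axis, with 1 symbol per library and the number of genes in brackets. Eggshell and ribosomal lists lie to the right in both ovary libraries, and accessory gland, testis and cuticle lists lie far to the left. The iso1a body stands apart from Rev and IR6 for several lists. Among them, chorion, yolk and ribosomal genes lie below Rev and IR6, and accessory gland, immune peptide and neuron genes above.

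The genes lowest against the body came from several of these lists. The 15 with the largest smaller ratio were fln, Scp1, Mlc1, ple, Cyp4g1, TpnC41C, CG9297, Eip93F, TpnC4, shot, bt, Cpr49Ae, CG14066, apolpp and Cpr100A. Of these, 12 were at 0 in both ovary libraries, and Mlc1, Cyp4g1 and CG14066 had 17, 9 and 25 Solexa counts. The calcium-binding gene Scp1 had 11283 body counts and was at least 94.4-fold lower in the Iso1a-454 and 2416-fold lower in the Solexa library. The spectraplakin gene shot and the projectin gene bt have long transcripts, of 27842 and 27666 bases in the BDGP6 annotation.

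The share of called genes differed by transcript length, with no single direction for the lower genes. Up to 500 bases, 3.6% of tested genes were higher and 56.8% lower in ovary. Among transcripts of 500 to 1000 bases, 4.28% were higher and 40.8% lower. Between 1000 and 2000 bases the shares were 2.78% and 30.8%, between 2000 and 4000 bases 0.439% and 45.2%, between 4000 and 8000 bases 0% and 65.7%, and above 8000 bases they were 0% and 78.7%. The median longest transcript was 1059.5 bases for the higher genes, 2279 for the lower genes and 1840 for all tested. With body counts divided by length, 139 genes were higher and 3017 lower, of which 111 and 2568 were also called without it.

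By chromosome, the share of tested genes that was higher ranged from 1.37% on chromosome 4 to 2.22% on arm 2R, and X held 1.99%. The share that was lower was 67.1% of 73 genes on chromosome 4 and between 42.0% and 45.4% on the other arms.

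The 2 ovary libraries differed for some genes. Of 8582 genes, 7394 had the same direction in both, and 774 were above the body in both. In 12 genes the Iso1a-454 library was at least 4-fold above the body and the Solexa library at least 4-fold below it, and in another 12 the reverse held. The heat shock gene Hsp26 had 2 counts in the Iso1a-454 and 24345 in the Solexa library, against 747 in the body, and EMC6 had 1 and 3788, against 895. In the other direction RpL22 had 661 and 3 counts, against 1414, and CG13084 had 54 and 0, against 141. Of 239 genes with at least 50 counts in Iso1a-454, 2 were at 0 in the 25.6-fold deeper Solexa library, CG13084 and yellow-g. These genes were chosen after their values were seen. Platform and normalization label differ together between the ovary libraries and cannot be told apart.

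TE transcripts took a small share of the ovary libraries. They made up 0.349% of gene and TE counts in the Iso1a-454 library, with an exact binomial 95% interval of 0.315 to 0.385. The share was 0.268% (0.262 to 0.274) in Solexa, against 57.1% (57.0 to 57.1) in the iso1a body. A stretch of 25191 bases on arm U, an assembly of unplaced sequence, was taken around the copy with the most iso1a body counts. It held 91.3% of TE counts in that body, on which it was chosen, and 37.4% in Rev and 51.1% in IR6. It held 1.04% and 15.5% in the Iso1a-454 and Solexa libraries. Without it the shares were 0.345% and 0.227% in ovary, against 10.4% in the body. The Rev and IR6 bodies held 2.33% and 2.67%. Reads that map to several places were treated in a way the labels and files do not state, which bears on all TE values.

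Of 166 TE families, 103 passed the filter, and 0 were higher and 73 lower in ovary, which is 70.9%. This number rests on depth too, and with 3 added to counts 47 were lower. Bari1, hopper and Porto1, for example, were called lower at 0 in both ovary libraries. Their body levels of 19.4, 20.8 and 25.1 CPM lie under the 27.3 CPM that a count of 0 allows in Iso1a-454. The direction depended on scaling: relative to the TE total instead of the gene total, 38 were higher and 3 lower. With the Rev body 23 of 92 families were lower, and with IR6 23 of 78. Families of LTR retrotransposons known to be active in follicle cells and held down by the flamenco locus had 14 of 15 lower and summed to 773 CPM in the Iso1a-454 and 1362 CPM in the Solexa ovary library, against 857286 CPM in the body. Without the stretch on arm U the sums were 746 and 966 CPM in ovary, against 57509 CPM in the body, and 14 of 15 were lower there too. Stalker2 had 50 and 2336 counts in ovary, against 1280304 in the body (−9.31 and −8.46). Without the stretch the body held 38070 of these counts and the ratios were −4.24 and −3.39. Dvir_Tv1, whose name points to an element of D. virilis, had 4 and 201 counts in ovary, against 1660362 in the body, or 3 and 159 against 30039 without the stretch. ZAM, a target of flamenco, had 0 and 66 counts in ovary, against 36906 in the body, or 0 and 0 against 3830 without the stretch. Idefix, which had no counts there, had 6 and 116, against 4280. The germline I-element, a LINE, had 1 and 0 counts in ovary, against 195 in the body, and was not called. In the Rev and IR6 bodies it had 3969 and 2758 counts. The gypsy family had 0 and 0 counts in ovary, against 38 in the body, and did not pass the filter. The LINE family Rt1a was above the body, with 4 and 89 counts in ovary against 57 in the body (1.64 and 1.28), short of 4-fold.

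Few TE copies had ovary counts, but the ovary libraries also held few TE counts. These were 385 in Iso1a-454 and 7566 in Solexa, against 5820698 in the iso1a body. Of 20953 annotated copies, 150 had counts in the Iso1a-454 library and 119 in the Solexa library, against 5552 in the iso1a body. Of the 150 Iso1a-454 copies, 104 had 1 count. The 5 copies with the most counts held 44.9% of TE counts in Iso1a-454, 54.2% in Solexa and 64.8% in the body. The ovary libraries shared 31 copies, which is 20.7% of the Iso1a-454 copies and 26.1% of the Solexa copies, and these held 32.7% and 59.4% of the TE counts of the Iso1a-454 and Solexa libraries. Of the 31 copies, 29 also had body counts, and 3 lay on the stretch of arm U.

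Some single copies showed the reverse of their family, with a higher level in ovary than in the iso1a body once scaled to the gene total. Positions are those of the deposited annotation, whose genome build is not named in the labels or files, so genes near the copies are not named. A Stalker2 copy at 3R:12295523-12295869 had 17 and 1118 counts in the Iso1a-454 and Solexa libraries, against 1 in the iso1a body (8.86 and 10.18). In Rev and IR6 bodies it had 99 and 72 counts. A second Stalker2 copy, at 2R:1009331-1009691, had 27 and 957 counts in ovary, against 76 in the iso1a body (3.84 and 4.28), and 778 and 554 in the Rev and IR6 bodies. An HMS-Beagle copy at X:11509885-11510084 had 33 and 231 counts in ovary, against 4 in the body (8.21 and 6.32). These 3 copies carried values above the body in both ovary libraries while their families were lower.

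Other copies had nearly all their ovary counts in 1 of the 2 libraries. A McClintock copy at 2L:6101640-6101789 had 86 counts in the Iso1a-454 library and 0 in the Solexa library, against 4 in the body. A Dmir_spock copy at X:15679371-15679553 had 1 and 875 counts in ovary, against 35 in the body. The Quasimodo copy with most Solexa counts, 806 of the family's 902, had 0 counts in Iso1a-454 and 400504 in the body, and lay on arm U.

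**Figure D5:**
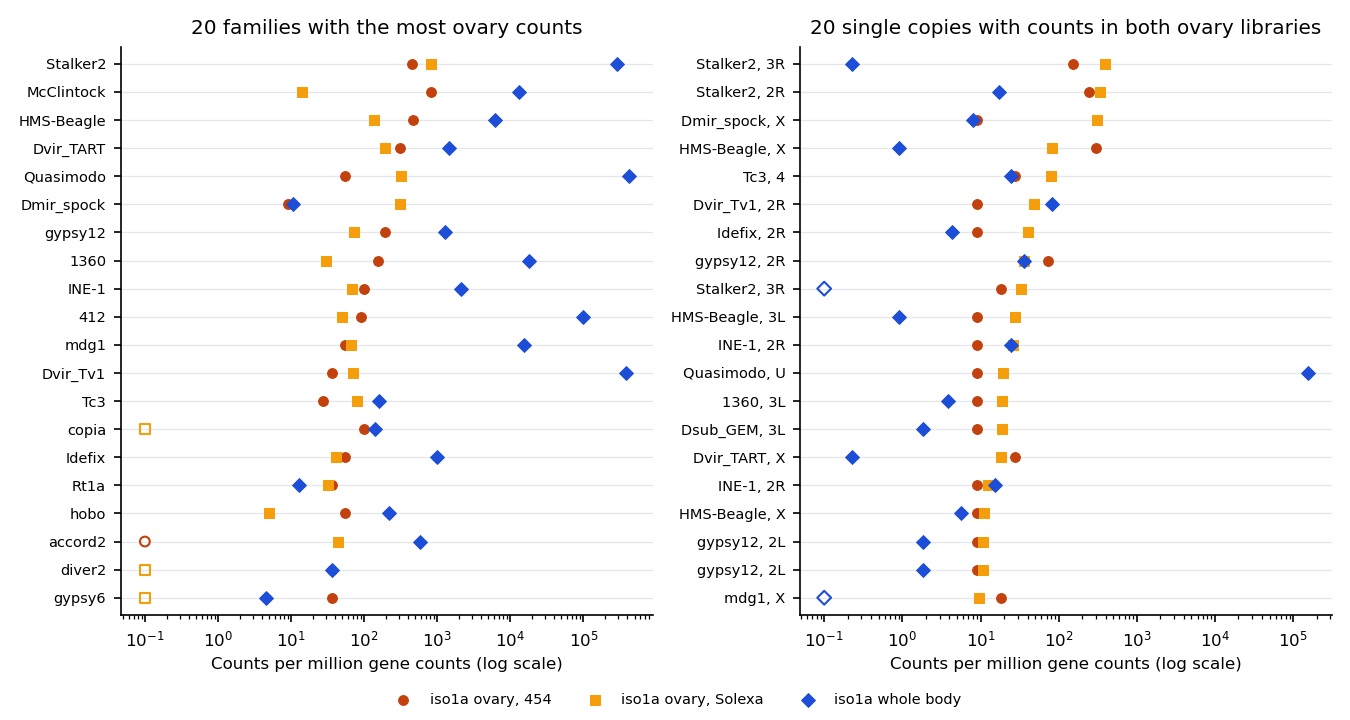
CPM on a log axis for the 20 TE families with the most ovary counts (left) and for 20 single copies with counts in both ovary libraries, named by family and chromosome arm (right); symbols as in the plot of eggshell genes, open at the left edge for 0. The body symbol of a family lies right of both ovary symbols except for Rt1a, where it lies left of both, and Dmir_spock and gypsy6, where it lies right of 1. Several single copies, such as the first Stalker2 copy on 3R, lie further right in ovary.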

How the data were processed

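Counts came from 5 libraries that were deposited, 1 per group, so no p-value was computed. The authors deposited raw counts of reads per annotated transcript and, per copy of each TE, the number of overlapping reads. Reads were aligned with Bowtie, per the submitters' processing notes, and TE overlaps counted with S-MART, per the file headers; versions, genome build, the handling of multiply mapped reads and the meaning of the normalization label are not stated in labels or headers.

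A gene took the largest count among its transcripts, with unlisted transcripts at 0. Of 13265 genes, 12473 were named by locus tag and 541 by synonym in RefSeq, and 251 kept their identifier. Rows without a gene name held 1, 0 and 681 counts in the Iso1a-454 ovary, Solexa ovary and iso1a body libraries and were left out. Ratios are log2 of (count + 0.5) over the gene total, with exact conditional Clopper-Pearson 95% intervals. Calls needed 50 counts in each pair and 4-fold in both. The self-test used simulated counts. Python 3.11.15, numpy 2.4.6, pandas 2.3.3, scipy 1.17.1, R 4.3.3, edgeR 4.0.16 and DESeq2 1.42.0 were used, the last 2 for scaling factors.

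The members and lists were chosen with earlier results of these data known. Named genes were the 15 with the largest smaller ratio in each direction, the list members with the most counts (up to 4 per list, or 6 in the eggshell, yolk, oocyte patterning and piRNA lists) and the 10 highest of each library; TE families and copies followed a like rule. Any other gene or copy named was chosen after its values were seen, among them the markers, paralogs, localised oocyte mRNAs and genes on which the ovary libraries differed. Promoter motifs had been planned and were not analysed here.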

Additional observations from a re-analysis of the deposited data

How the results depend on the processing

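No paired analysis was possible because each group held 1 library, and no replicate could be left out. Higher genes numbered 163, against 367 with TMM, 332 with DESeq2 factors, 450 with Solexa alone, 287 with Iso1a-454 alone, 342 at 2-fold and 73 at 8-fold. Lower genes numbered 3772, against 2080 with TMM, 2205 with DESeq2 factors, 1205 with 3 added to counts, 2165 at 8-fold, 825 by the near interval bounds and 1856 with 3 counts in place of 0, the last chosen after seeing the data. With Rev and IR6 as the body, 69 and 67 of the 163 higher genes were called again, and 1775 and 1700 of the 3772 lower genes. Of 23 lists, 10 had a median above that of all genes, against 6 with no minimum, 5 with 3 added and 6 with IR6. Higher TE families numbered 0, against 1 with TMM, 2 with Solexa alone and 38 relative to the TE total; lower ones 73, against 3 relative to the TE total, 47 with 3 added and 23 with Rev or IR6. Without the arm U stretch the TE share was 0.227% in Solexa ovary and 10.4% in the body, and without overlapping copies 0.254% and 57.0%. With at least 10 counts, 5 copies remained in Iso1a-454 and 3 in both ovary libraries. Among named genes that were called, values that changed sign were BomS2 (0.76 with Rev, 1.54 with IR6), Vml (−0.0516 with Rev), Yp2 (−0.44 with Rev, −0.39 with IR6) and zuc (0.0209 with IR6). Among named TE families that were called, those that changed sign relative to the TE total were Dvir_TART (6.04), HMS-Beagle (3.44), Idefix (4.39) and gypsy12 (4.82). The cause was not tested. Over named genes, 1527 values either kept their call or stayed uncalled, 74 fell short of the threshold, 36 passed it and 6 changed sign. Over named TE families these were 110, 18, 4 and 4. A value that stayed uncalled could change sign without being listed, as Yp3 did with Rev, where the body held 6058 CPM. Depth of the Iso1a-454 library limits every ratio of a gene under 27.3 CPM there.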
